A study of Mus musculus with 2 samples.

Results

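The interleukin-1 family genes examined here are 10 listed cytokine and receptor genes, found as probe sets whose single gene symbol in the platform annotation is a listed gene. Of the 10, 9 had a probe set, among 18193 genes with one, and these 9 genes had 17 probe sets. The ligands were Il1a, Il1b, Il18 and Il33, the antagonist Il1rn, and the receptor chains Il1r1, Il1rap, Il1rl2 and Il1r2. For Il1rl1, the receptor that binds IL-33, no probe set carried the symbol, and it was not analysed here.

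RNA came from primary keratinocytes of newborn C57BL/6 mice, cultured as adherent epidermal cells. The control culture came from littermates titled MED1flox/flox, a conditional allele, and described as wild-type in their source. The other culture was titled MED1epi-/- and came from K5Cre+ MED1flox/flox mice, in which the keratin 5 promoter drives the Cre recombinase in keratinocytes. MED1 is a subunit of Mediator, which links transcription factors to RNA polymerase II. There was 1 array for each culture. With no replicates, neither a test nor a spread between cultures could be had, and precision is limited by the number of arrays. The labels do not say how many animals gave each culture.

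Interleukin-1 family cytokines are alarm signals of barrier tissues. IL-1α and IL-33 are stored in cells as active proteins and released on damage, whereas IL-1β and IL-18 are cut by inflammasome caspases. Each agonist binds its own receptor chain, which then recruits a second chain, Il1rap for IL-1, IL-33 and IL-36, and signals through MYD88 and NF-kB. The pathway is held back by IL-1 receptor antagonist, encoded by Il1rn, and by the decoy receptor Il1r2, which binds IL-1 without signalling. Keratinocytes are known as a large store of IL-1α in skin.

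The signal of Il33 was higher, and those of Il1a and Il1r2 lower, in the culture labelled MED1-null by more than 2-fold. By the probe sets used, the signals of the antagonist and of the signalling receptor chains differed by less than the spread between probe sets of a gene. To show the regulatory sequence of Il33, Il1a and Il1r2, the promoter windows of RefSeq (GRCm38.p6, 250 bases before to 50 after an annotated start) are given 5′ to 3′ along the gene. Capitals mark matches to the motifs listed after them, and Il33 has 2 annotated starts.
Il1a, chr2:129309923-129310222, minus strand: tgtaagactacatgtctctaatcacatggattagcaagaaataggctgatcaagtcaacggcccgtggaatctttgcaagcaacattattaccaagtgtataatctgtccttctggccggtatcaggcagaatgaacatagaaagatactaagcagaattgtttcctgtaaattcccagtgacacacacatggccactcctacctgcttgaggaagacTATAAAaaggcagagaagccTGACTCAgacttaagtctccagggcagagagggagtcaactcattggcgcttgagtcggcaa
Il1r2, chr1:40085843-40086142, plus strand: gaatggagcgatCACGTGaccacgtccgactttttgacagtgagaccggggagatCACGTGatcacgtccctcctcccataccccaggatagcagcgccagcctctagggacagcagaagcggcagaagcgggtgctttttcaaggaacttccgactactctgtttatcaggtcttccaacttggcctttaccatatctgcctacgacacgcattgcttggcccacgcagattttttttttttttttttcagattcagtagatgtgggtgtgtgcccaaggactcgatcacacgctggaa
Il33 upstream start, chr19:29924863-29925162, plus strand: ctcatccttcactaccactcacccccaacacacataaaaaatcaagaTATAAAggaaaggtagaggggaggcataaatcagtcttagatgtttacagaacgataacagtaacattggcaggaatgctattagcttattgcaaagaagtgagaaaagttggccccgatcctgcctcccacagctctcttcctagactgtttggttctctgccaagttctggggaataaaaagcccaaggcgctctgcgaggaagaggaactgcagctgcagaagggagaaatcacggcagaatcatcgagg
Il33 downstream start, chr19:29945540-29945839, plus strand: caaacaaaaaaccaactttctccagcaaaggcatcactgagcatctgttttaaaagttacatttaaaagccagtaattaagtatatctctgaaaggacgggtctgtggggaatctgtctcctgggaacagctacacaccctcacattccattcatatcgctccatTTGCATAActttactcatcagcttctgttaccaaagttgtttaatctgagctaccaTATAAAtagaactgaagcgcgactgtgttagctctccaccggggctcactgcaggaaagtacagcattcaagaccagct

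Both strands of each window were searched for 7 motifs, chosen after the promoter letters had been seen. The TATA box was searched as TATAAA, which 13.6% of all 32851 promoter windows of this length hold. For AP-1, a factor of stress and growth signalling, the letters were TGANTCA, found in 7.81% of windows. The E-box was searched as CACGTG, found in 7.15%. For C/EBP the letters were TTGCNNAA, found in 10.8%. The NF-kB motif was searched as GGGNNTTCC, found in 5.82% of windows, the nuclear receptor half-site as AGGTCA, found in 16.3%, and the cyclic AMP response element as TGACGTCA, found in 1.79%. No motif contains another. Positions are those of a match's first base, counted from the annotated start with no base 0.

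The Il1a window held the TATA box at base -32 and the AP-1 motif, as TGACTCA, at base -12. The Il1r2 window held the E-box at bases -238 and -195 and no TATA box. The upstream Il33 window held the TATA box at base -203. The downstream Il33 window held it at base -29, together with the C/EBP motif at base -85. The NF-kB, half-site and cyclic AMP motifs were in none of these 4 windows, which says only that those letters are not in these stretches. Of the 10 members, 6 held the TATA box in at least 1 window, among them Il1b at base -31. The C/EBP motif was in windows of 4 members, the AP-1 motif of 2 and the E-box of 1. Each match is a description of letters and not a measured site.

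The values are MAS5 signals, in arbitrary units on a linear scale, as the authors deposited them. Values under 67.7, the median over both arrays after Affymetrix controls were left out, were raised to that floor, and a gene at or above it on either array counts as measured. Each gene is represented by its probe set of highest mean over the arrays. Log2 ratios are the MED1-null label over control. The pooled SD of log2 ratios between probe sets of a gene was 0.31 (1.24-fold) over 4916 genes, which covers probe sets and not cultures. The targeted gene was examined first. All 7 Med1 probe sets read higher in the culture labelled MED1-null, the one used at 462.7 and 1039. The lowest of the 7 was below the floor on both arrays (4.0 and 28.4), and others were below it in control. Where the probe sets lie relative to the deleted part of the gene is not given, so they check nothing about the deletion. Transcripts linked to sex also differed along with the label. Xist read 5461 in control and 55.7 in the other culture, and Eif2s3y 4.2 and 2164. Genotype label, sex-linked transcripts and culture cannot be told apart in any value below. For Gapdh, the control probe sets at the 3′ end gave 0.762 and 0.767 of the signal at the 5′ end, a sign of RNA integrity.

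Keratinocyte markers were high in both cultures: Krt5 read 26821 and 32220 and Krt14 32905 and 36849, although Krt1, a marker of differentiating layers, was below the floor on both arrays. Most markers of leukocytes, which also make IL-1 family cytokines, were low, with Cd68 an exception. Ptprc, carried by all leukocytes, read 27.7 and 7.8. Of macrophage markers, 6 of 11 reached the floor, and all 6 had log2 ratios above 0, bounds included. The summed signals of the 11 were 3047 and 3582, of which Cd68 gave 2446 and 2799. Of mast cell markers, 6 of 7 were below the floor on both arrays, as were 6 of 7 Langerhans and dendritic cell markers, 5 of 6 T cell markers, 3 of 4 neutrophil markers and 6 of 7 endothelial markers. Fibroblast markers were mostly lower in the culture labelled MED1-null, with log2 ratios below 0 for 6 of 7 measured genes. Most of these 6 were bounds, with low control signals and the other value under the floor. A further 2 of the 9 fibroblast markers with a probe set were below the floor on both arrays. Pdgfra read 156.6 and 126.2, and Col1a2 went the other way at 80.3 and 115.3. The summed signal was 3443 and 1483, of which Sparc gave 2709 and 1034. Melanocyte markers were present on both arrays, with summed signals of 24647 and 19370. The part of these cells in the results below was not tested, and fewer cells of a type cannot be told apart from less RNA per cell.

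Of the 9 measured members, 1 (11.1%) was at least 2-fold higher, beside 1.63% of all 11621 measured genes, and 2 (22.2%) were at least 2-fold lower, beside 2.23%. The remaining 6 lay within 2-fold. The median log2 ratio of the members was -0.12 and that of all measured genes 0.06. After a lowess rescaling, the background was 143 genes higher and 314 lower, in place of 190 and 259. The plot of signals shows every probe set.

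**Figure D1:**
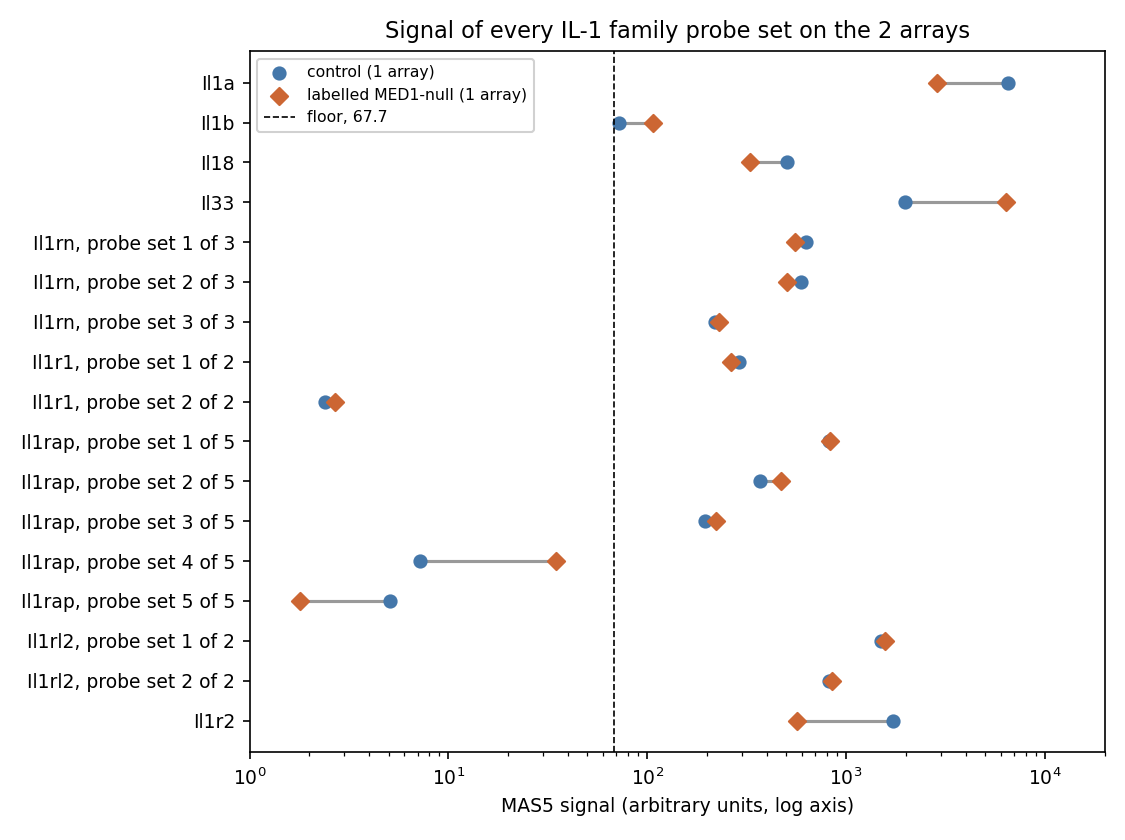
MAS5 signal (log axis) of all 17 probe sets of the 9 members in the control culture (circles) and the culture labelled MED1-null (diamonds), with the floor of 67.7 as a dashed line. Il33 moves to the right from 1985 to 6360, Il1a and Il1r2 move to the left, and 3 probe sets of Il1r1 and Il1rap lie below the floor on both arrays.

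Among the ligands, Il33 had the highest ratio. IL-33 is a nuclear cytokine of barrier cells that acts on mast cells, innate lymphoid cells and T cells. Il33 read 1985 in control and 6360 in the culture labelled MED1-null, a 3.20-fold higher signal (log2 ratio 1.68). It ranked 22 from the highest of 11621 measured genes. Of the 1008 genes whose mean log2 signal was within 0.5 of its own, 0.694% were at least 2-fold higher. Fibroblasts are another cell type known to make IL-33. Their markers had a median log2 ratio of -0.74 over 7 measured genes, a value that is itself a bound. The part of these cells in the Il33 signal was not tested.

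Il1a encodes IL-1α, the form of IL-1 that keratinocytes hold in store. It read 6524 in control and 2871 in the culture labelled MED1-null, 2.27-fold lower (log2 ratio -1.18), and ranked 176 from the lowest. Of 822 genes of like signal, 2.80% were at least 2-fold lower. Il1b, which encodes the IL-1β that myeloid cells make in large amounts, was close to the floor on both arrays, at 72.2 and 107.4 (1.49-fold, log2 ratio 0.57). At that level MAS5 values are noisy, and Il1b was no longer measured with a floor at the 75th percentile. Il18 encodes a cytokine known for driving interferon-γ in lymphocytes. It read 502.2 and 327.1, 1.54-fold lower (log2 ratio -0.62), and its log2 ratio was -0.21 with that higher floor, under which its lower value falls.

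Both alarm cytokines that are active without caspase cleavage, Il1a and Il33, thus lay beyond 2-fold and in opposite directions. The plot of all measured genes sets each member among genes of like signal.

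**Figure D2:**
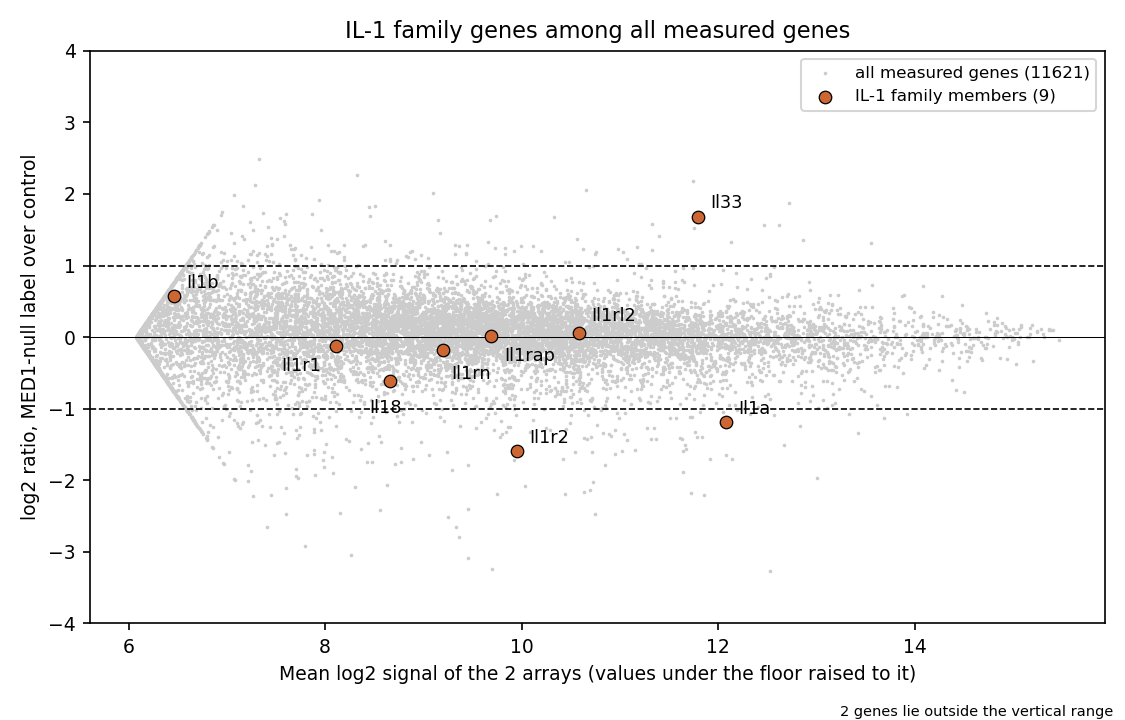
Log2 ratio (MED1-null label over control) against the mean log2 signal of the 2 arrays, for 11621 measured genes (grey) and the 9 members (orange); dashed lines mark 2-fold. Il33 lies above the upper line at 1.68, Il1a (-1.18) and Il1r2 (-1.59) below the lower one, and the other members lie between the lines.

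The inhibitors differed in the size of their ratios. Il1r2, the decoy receptor, read 1719 and 569.3, 3.02-fold lower in the culture labelled MED1-null (log2 ratio -1.59), and ranked 72 from the lowest of all measured genes. Of 2007 genes of like signal, 1.49% were at least 2-fold lower. Il1rn, the receptor antagonist, is made in keratinocytes mainly as an intracellular form. Its 3 probe sets read 625.8 and 554.3, 595.1 and 504.1, and 218.6 and 230.6, with log2 ratios from -0.24 to 0.08. These are all smaller than the SD between probe sets. The log2 ratio of Il1a was 1.01 lower than that of Il1rn, so the signal of Il1a relative to its antagonist was 2.01-fold lower in the culture labelled MED1-null. Relative to Il1r2, the decoy, Il1a was higher by 0.41 log2 units. These are differences between ratios and not between levels of the genes.

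The signalling receptor chains read nearly alike on the arrays. Il1r1, the chain that binds IL-1α and IL-1β, read 287.9 and 265.0 (log2 ratio -0.12), and its other probe set was below the floor at 2.4 and 2.7. Il1rap, the shared coreceptor, read 822.0 and 833.5 by the probe set used, a log2 ratio of 0.02 that was -0.04, -0.03 and -0.04 after rescaling by the median ratio, quantiles and lowess. The 2 further Il1rap probe sets above the floor read 368.5 and 470.8, and 196.3 and 220.6 (log2 ratios 0.35 and 0.17), and the other 2 lay below it on both arrays. Il1rl2, the IL-36 receptor chain, read 1506 and 1561, and 822.4 and 850.7, with log2 ratios of 0.05 for each probe set; the first was -0.01 after rescaling by the median ratio. With 1 array a group, these values do not show that the receptor genes were equal between genotypes.

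The genes Il1r2, Il1r1, Il1rl2, Il1rl1, Il18r1 and Il18rap follow each other on mouse chromosome 1 in the RefSeq table of GRCm38.p6, with 0 protein-coding genes between neighbours. Il1r2 lies at the end of this cluster. Its log2 ratio of -1.59 differed from those of its neighbours Il1r1 (-0.12) and Il1rl2 (0.05), while Il18r1 (5.8 and 4.8) and Il18rap (34.5 and 3.3) were below the floor. Likewise Il1a and Il1b are neighbours on chromosome 2, with log2 ratios of -1.18 and 0.57, the latter near the floor. Il1rn lies elsewhere on chromosome 2, next to Il1f10 and the IL-36 genes.

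Under other processing, the log2 ratio of Il33 ranged from 1.62 to 1.71, Il1a from -1.25 to -1.15 and Il1r2 from -1.66 to -1.59 over 8 alternatives each. Of these 3 genes each has a single probe set, so no second probe set checks the value.

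**Figure D3:**
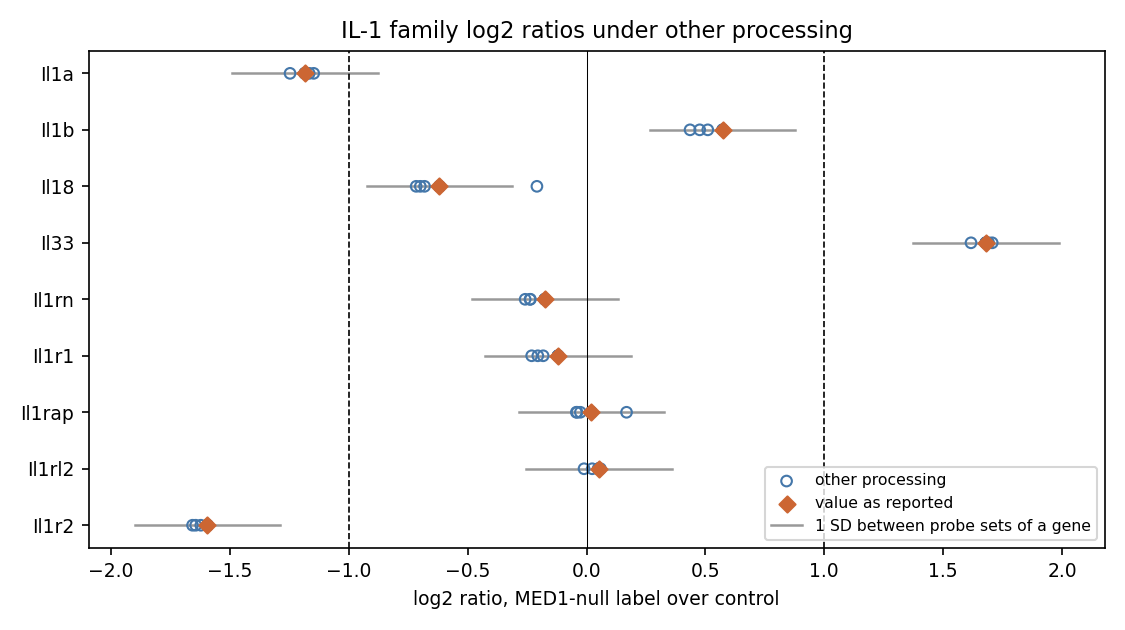
Log2 ratio (MED1-null label over control) of each measured member as reported (diamonds) and under up to 8 other processing settings (open circles), with 1 SD between probe sets of a gene, 0.31, to either side (grey bars) and 2-fold as dashed lines. Il33, Il1a and Il1r2 keep their side of the 2-fold lines, and Il18 moves from -0.62 to -0.21 under the highest floor.

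The other ligands of the family went both ways, and 1 of 5 was at least 2-fold lower, beside 2.23% of all measured genes. On the higher side 0 reached 2-fold, beside 1.63%. IL-36 cytokines act through Il1rl2 and Il1rap and are made mainly by epithelia. Il1f6, which encodes IL-36α, read 536.9 and 234.0 (2.29-fold lower). Il1f9, which encodes IL-36γ, read 7946 and 4374 (1.82-fold lower). Il1f8, which encodes IL-36β, was higher at 268.7 and 430.6 (1.60-fold), as was Il1f10 at 158.5 and 222.1 (1.40-fold). Il1f5, the IL-36 receptor antagonist, read 1911 and 2373, a log2 ratio of 0.31, and its other probe set had a log2 ratio of 0.09. The median of the 5 was 0.31 and became -0.31 with the floor at the 75th percentile, which left 3 of them. Of 6 further receptors and binding proteins, 4 were below the floor on both arrays, among them Il1rapl1 and Il1rapl2. Sigirr, an inhibitory receptor of the family, read 242.2 and 258.4. Il18bp, a secreted inhibitor of IL-18, read 13.9 in control and 86.6, at least 1.28-fold higher.

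Genes of cytokine processing and release mostly lay within 2-fold, as did most measured genes of the arrays. Of 15 listed genes with a probe set, 11 were measured, with a median log2 ratio of 0.07. Beyond 2-fold, 0 of these were higher and 1 lower, beside 1.63% and 2.23% of all measured genes. The exception was Txnip, an inhibitor of thioredoxin that also binds the NLRP3 sensor, at 3030 and 1184 (2.56-fold lower). Casp1, which cuts pro-IL-1β and pro-IL-18, read 13.4 and 24.6, and Nlrp3 56.3 and 58.6, both below the floor. The adaptor gene Pycard read 1355 and 1798. Gsdmd, which encodes the pore protein gasdermin D, read 105.5 and 64.7, at least 1.56-fold lower. Capn2, a calpain subunit of the kind that trims pro-IL-1α, read 15465 and 18791, and its inhibitor Cast read 7545 and 10483 (1.39-fold higher). P2rx7, the ATP-gated channel that triggers IL-1β release, read 93.8 and 126.5.

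By the probe set used for each gene, 0 of 20 receptor-proximal signalling genes were beyond 2-fold, against 1.63% of all measured genes higher and 2.23% lower. All 20 with a probe set were measured, with a median of -0.08 and values from Tab2 at the low end to Tab1 at the high end. Tab1 and Tab2 encode partners of the kinase TAK1, and read 217.2 and 339.5 (1.56-fold higher) and 6414 and 4138 (1.55-fold lower). Peli1, a ubiquitin ligase, read 2403 and 1566 (1.53-fold lower). The adaptor Myd88 read 608.0 and 612.5. Mapk14, which encodes the kinase p38α, read 2788 and 2715 by the probe set used (log2 ratio -0.04), but its measured probe sets ranged from -0.37 to 1.46, so that another of them was beyond 2-fold higher.

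Of 16 NF-kB subunits, kinases and inhibitors, 1 was beyond 2-fold, on the higher side, by the probe set used, against 1.63% of all measured genes. Tnfaip3, which encodes the ubiquitin-editing inhibitor A20, read 1687 and 3902 (2.31-fold higher), and its 2 probe sets had log2 ratios of 1.21 and 1.25. Nfkbiz, an NF-kB cofactor that IL-1 and IL-36 are known to induce, read 10716 and 5751 (1.86-fold lower), with log2 ratios from -0.90 to -0.03 over 3 probe sets. Nfkb2, which encodes the p100 precursor and p52, read 662.3 and 689.9 by the probe set used (log2 ratio 0.06), whereas its other probe set had a log2 ratio of 1.21, as large as that of Tnfaip3. Relb read 219.0 and 396.0 (1.81-fold higher), and Nfkbid read 119.2 and 164.1. The median of the 16 was 0.02 and turned to -0.05, -0.01 and -0.04 under the rescalings by median ratio, quantiles and lowess.

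Of 25 measured genes that IL-1 is known to induce in epithelial cells, 8 were at least 2-fold lower and 2 at least 2-fold higher. These counts go by the probe set used for each gene and stand beside 2.23% and 1.63% of all measured genes. Earlier results of these arrays for several of the 25 genes were known when the list was chosen. The lower genes included the protease inhibitor Slpi (9.61-fold), the metalloproteinase Mmp3 (9.45-fold), S100a8 (3.90-fold) and S100a9 (3.14-fold), which encode calprotectin. They also included the granulocyte growth factor Csf3 (3.14-fold), the defensin Defb3 (2.42-fold), Lcn2 (at least 2.47-fold) and Csf2 (at least 2.10-fold). The higher genes were Saa3, an acute phase protein (2.83-fold), and the adhesion molecule Icam1 (2.51-fold). Tnf, which encodes tumour necrosis factor, lay at the line with 208.1 and 415.9, a log2 ratio of 0.999. Mmp9 was 1.86-fold higher by the probe set used (log2 ratio 0.90), and its other probe set was beyond 2-fold higher (log2 ratio 1.02). Tslp, a cytokine of barrier cells, was 1.84-fold higher. The neutrophil chemokine Cxcl1 read 17609 and 17606 and Cxcl2 read 6802 and 7028, so members of this list lay on both sides, and its median log2 ratio was -0.0002. Only 17 of these genes were measured with a floor at the 75th percentile, and their median was -0.43. With that floor 5 of the 17 were at least 2-fold lower and 1 higher, beside 106 and 49 of all measured genes.

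**Figure D4:**
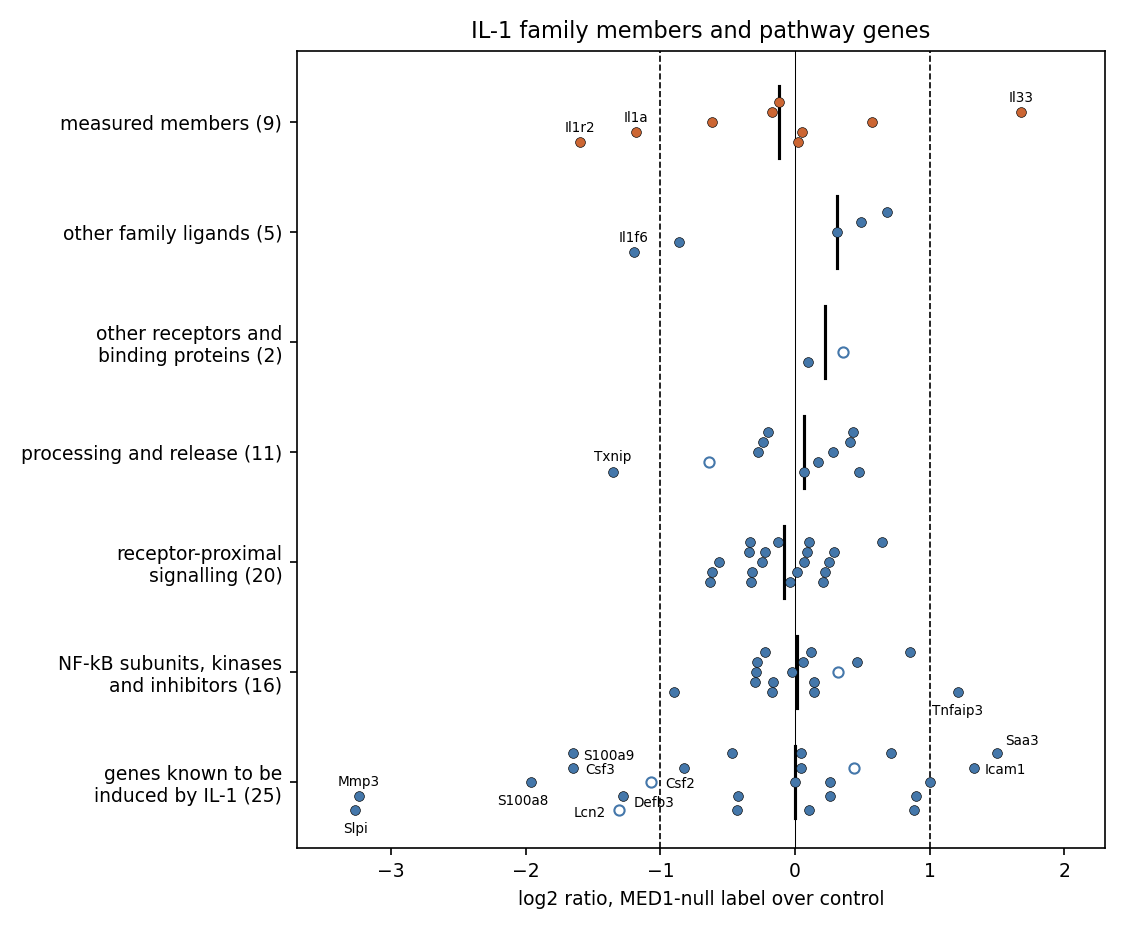
Log2 ratio (MED1-null label over control) of the 9 measured members (orange) and of measured genes in 6 pathway lists (blue), with the number of genes in brackets; open points are bounds, black bars medians and dashed lines 2-fold. By the probe set used for each gene, 0 of 20 receptor-proximal signalling genes lie beyond the lines. Of 25 IL-1-induced genes, 8 lie to the left and 2 to the right. Of all measured genes, 2.23% were at least 2-fold lower and 1.63% at least 2-fold higher. Earlier results for several of the 25 were known when that list was chosen.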

How the data were processed

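Total RNA of 2 primary keratinocyte cultures was labelled with biotin and hybridised to Affymetrix Mouse Genome arrays, 1 per group, grouped by the genotype in the labels. The signal intensities are those the authors deposited, 1 per probe set, made with MAS5 (per the submitters' processing notes) in the array maker's GeneChip software (design text); its version is not given in the sources used here. The values show that each array had been scaled to a mean of 500, leaving out the top and bottom 2%. MAS5 subtracts mismatch signal, so low values are noisy. Hence a floor of 67.7 was used, and a ratio with 1 array under it is a bound.

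Of 45101 probe sets, 64 were controls, 34945 had 1 symbol in GEO's platform annotation, 932 several and 9160 none; those with several or none were not named. Of the first, 34741 matched an Entrez ID of the RefSeq table (GRCm38.p6), with 0 symbols differing. Ratios were computed with Python 3.11.15, pandas 2.3.3, numpy 2.4.6 and statsmodels 0.14.6. The counting was run on simulated data with 3-fold changes set in genes well above the floor. That run does not cover changes in genes near the floor or differences between cultures. No test was possible with 1 array a group, so genes past 2-fold were counted. Named are all members, Med1, the genes of each pathway list past 2-fold, up to 3 further ones farthest from 0, and leading cell type markers. Genes named beyond that rule (Il1f5, Il1rapl1, Il1rapl2, Il18r1, Il18rap, Casp1, Nlrp3, Pycard, Capn2, Myd88, Cxcl1, Cxcl2, Krt1, Ptprc, Xist, Eif2s3y, and the Toll-like, TNF and IL-17 receptors) were chosen for their role after values were seen. Mapk14 and Nfkb2 also fall outside that rule and were named after values were seen, each for another probe set beyond 2-fold. The members and lists were chosen with earlier results of these data known. Alternatives were other floors, rescalings, probe set rules and fold thresholds.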

Additional observations from a re-analysis of the deposited data

How the results depend on the processing

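Il33 remained the 1 member at least 2-fold higher under all 8 alternatives of floor, scaling and probe set rule, and Il1a and Il1r2 the 2 lower. A 3-fold threshold left 1 lower member. Genes at least 2-fold higher, 190 as reported, numbered 1120 with the floor at the 25th percentile, 49 at the 75th and 2226 with none, and 906 and 28 at 1.5-fold and 3-fold. Those lower, 259 as reported, numbered 934, 106, 1896, 851 and 73. Over all lists, 3 of 79 measured pathway genes (3.80%) were at least 2-fold higher, beside 1.63% of all measured genes. Another 10 (12.7%) were lower, beside 2.23%. Of these 10, 8 were in the list of IL-1-induced genes, chosen with earlier results for several of its genes known. The 3 higher became 5 with the low floor, 9 with none, 10 at 1.5-fold and 0 at 3-fold. The 10 lower became 6 with the high floor, 16 at 1.5-fold and 5 at 3-fold. Raising the floor removes genes by construction; the cause was not tested otherwise. Il1b and Il1r1 gave no value with the high floor, and Il1b none without probe sets of shared sequence. No paired analysis was possible because each group has 1 array. Signals near 67.7 limit Il1b.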

Other observations

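Receptors of other innate and cytokine pathways were examined in lists added after the values of the interleukin-1 genes were known. Of 11 Toll-like receptor genes with a probe set, 7 were below the floor on both arrays and 4 were measured. All 4 lay within 2-fold, as did most measured genes of the arrays. Beyond that line lay 1.63% of all measured genes on the higher side and 2.23% on the lower. Tlr2, which senses bacterial lipopeptides, read 123.5 in control and 116.1 in the culture labelled MED1-null, and Tlr9, a sensor of unmethylated DNA, read 135.1 and 97.8. Tlr3, a sensor of double-stranded RNA, read 63.4 and 66.3, under the floor.

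Of 7 genes for TNF and IL-17 receptor chains, 6 were measured, with a median log2 ratio of 0.11. These 6 also lay within 2-fold, like most measured genes. With 4 and 6 measured genes, such counts cannot show whether either list differs from the arrays as a whole. The TNF receptor gene Tnfrsf1a read 1606 and 1798, the IL-17 receptor chain genes Il17ra 393.6 and 429.4 and Il17rc 1533 and 1370, and Il17re, which encodes a chain for the epithelial cytokine IL-17C, 1126 and 1274. Il17rd, which also restrains growth factor signalling, read 170.6 and 133.4, with log2 ratios of -0.68 and -0.35 for its 2 probe sets.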
